A study of Mus musculus with 2 samples.

Results

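Fat tissue secretes protein hormones, the adipokines, that report on energy stores and act on appetite, insulin sensitivity, heat production and inflammation. Leptin signals the size of the fat store to the brain through the leptin receptor, and adiponectin raises insulin sensitivity through the receptors AdipoR1 and AdipoR2. The transcripts described here are those of the adipocyte hormones Lep, Adipoq, Retn, Rarres2, Nampt, Nrg4 and Metrnl and of the receptors Lepr, Adipor1 and Adipor2, a set chosen by name. All 10 genes were found on the array, each through 1 probe set that carries that symbol alone, out of 19938 genes named in this way.

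The tissue was white adipose tissue of mice that were 24 weeks old and had been fed a high-fat diet for 20 weeks. The Oma1-deficient group (KO) was 1 array labelled as an Oma1-deficient mouse, and the control group (WT) was 1 array labelled as a control mouse, both after the same diet. The protein Oma1 is a stress-activated protease in the inner membrane of mitochondria. The labels do not give the strain, the sex, the fat depot, the part of Oma1 that was disrupted, or whether an array held a pool of mice. Biotin-labelled RNA was hybridised to Affymetrix Mouse Gene 1.0 ST arrays, and the deposited value of a probe set is its intensity, a brightness in array units on a linear scale. With 1 array a group no test of the genotype was possible and the values have no replicate check, so the small number of arrays limits their precision.

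Differences were taken on the log2(intensity + 1) scale as KO minus WT, a scale that understates the change of dim genes. Their size was described by folds of 1.5 and 2 and set against an SD of 0.17 for a single probe set, called here the SD between probe sets. It is the root mean square difference between both probe sets of one gene, divided by the square root of 2, over 545 genes with exactly 2. This SD covers neither the spread between animals nor that between arrays. A gene was counted as above the intensity filter if the mean of its log2 values over both arrays reached that of an intensity of 83, the median of all probe sets on either array, as 11394 genes did. The Oma1 probe set read 155 in the KO array and 187 in the WT array (log2 difference -0.27), and 1594 genes above the filter had a still lower difference. Since the labels do not say where Oma1 was disrupted, that value does not check the genotype. All 11 listed adipocyte markers were above the filter. The same held for 11394 of all 19938 genes and for all 8 measured hepatocyte markers, so this count does not check the tissue label. Cidec, a lipid droplet protein of adipocytes, read 9316 in the KO array and 10771 in the WT array. The upper quartile of all probe sets was 318 in the KO array and 335 in the WT array.

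None of the 10 adipokine and receptor genes differed by 1.5-fold in either direction. Among all genes above the filter 1.26% reached that fold upwards in the KO array and 1.75% downwards, and without the filter the shares were 1.15% and 1.4%, so a count of 0 in a set of this size is near the background. These shares stand for 143 genes higher and 199 lower, a split that became 170 higher and 148 lower after quantile normalisation. At 2-fold the shares of all genes were 0.272% higher and 0.246% lower, and again 0 of the 10 genes reached the fold. In direction, 6 of the 10 genes were lower and 4 higher in the KO array. Of all genes above the filter 62.3% were lower and 36.6% higher, and without the filter 47.9% were lower and 46.9% higher, so the split of the set lies within the range of these backgrounds. The median difference of the 10 genes was -0.08, against -0.06 over all genes above the filter. Of the 10 genes 9 were above the filter, the exception being Lepr, which is counted among the 4 higher. The differences of the 7 hormones ran from -0.38 to 0.33, and those of the 3 receptors from -0.12 to 0.10, the last value being that of Lepr. A range widens with the number of genes, so these ranges do not compare the spread of hormones and receptors.

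**Figure D1:**
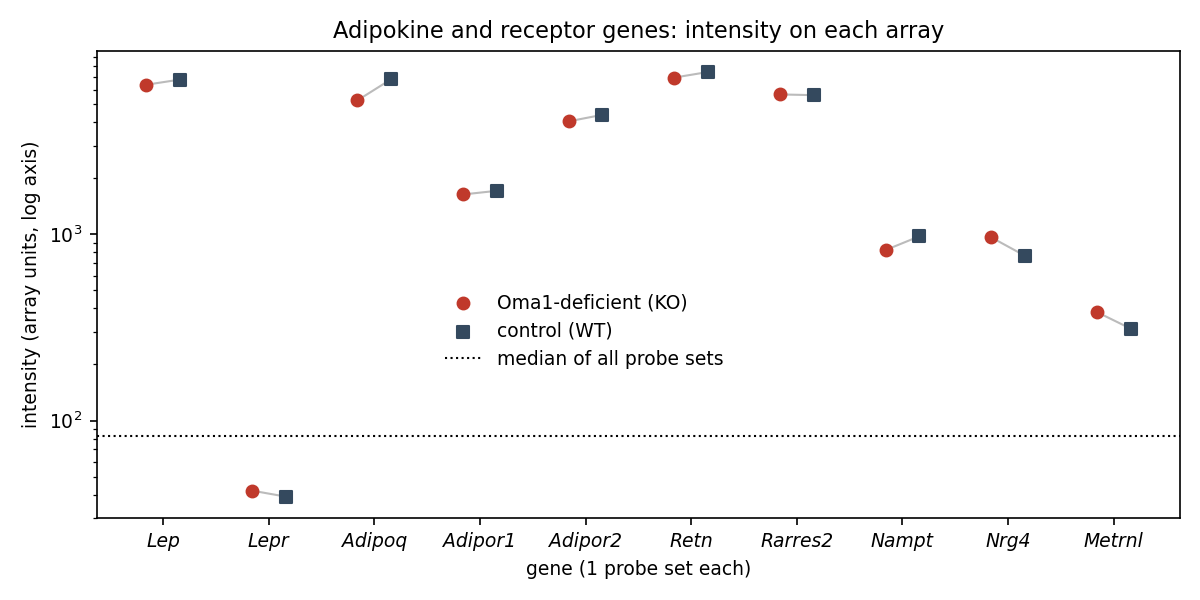
Intensity (array units, logarithmic axis) of the 10 adipokine and receptor genes, 1 probe set each, in the Oma1-deficient array (red circles, left) and the control array (dark squares, right); the dotted line is the median of all probe sets, 83. Adipoq (5255 in KO and 6832 in WT) and Nampt (824 in KO and 977 in WT) were the most lowered, Nrg4 (965 in KO and 768 in WT) and Metrnl (383 in KO and 312 in WT) the most raised, and Lepr was under the median on both arrays.

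Leptin and adiponectin differed unequally between the arrays. Adipoq, which encodes adiponectin, read 5255 in the KO array and 6832 in the WT array, a log2 difference of -0.38 and a KO to WT ratio of 0.769. Lep, which encodes leptin, read 6375 in the KO array and 6797 in the WT array, a log2 difference of -0.09 and a ratio of 0.938. The Adipoq difference was 2.23 times the SD between probe sets, whereas that of Lep was within it. Among genes above the filter 6.68% had a lower difference than Adipoq, and 42.6% had a lower one than Lep. The log2 difference of Adipoq was 0.29 below that of Lep, which is 1.19 times the SD of a difference between probe sets. Beside these values, 9 of the 11 adipocyte markers were lower in the KO array and 2 were higher, with a median difference of -0.17. Of all genes above the filter 62.3% were lower, with a median difference of -0.06. Acvr1c, an activin receptor of adipocytes, read 605 in the KO array and 1018 in the WT array (-0.75), and it was the only marker past 1.5-fold. Pnpla2, the adipose triglyceride lipase, read 5540 in the KO array and 6769 in the WT array (-0.29), and Cidec had a difference of -0.21. The summed intensity of the 11 markers was 59526 in the KO array and 66162 in the WT array, a ratio of 0.900. In bulk tissue, fewer adipocytes and less RNA per adipocyte cannot be told apart, and the part of adipocyte content in the Adipoq value was not tested.

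The promoters of both genes are shown because these hormones are the most specific products of the adipocyte, and that of Nrg4 because it had the highest difference of the set. Each is the stretch of 250 bases before the gene's start in RefSeq (build GRCm38.p6), and 9 of the 10 genes had an entry. Capitals mark matches, on either strand, to CCAAT (the CCAAT box), TATAA (the TATA box core), GGGCGG (the GC box core), CACGTG (the E-box of clock factors) or TTGCGCAA (a palindrome of the C/EBP type), and in Lep the TATAA matches of both strands overlap.
Adipoq (chr16:23146286-23146535, plus strand): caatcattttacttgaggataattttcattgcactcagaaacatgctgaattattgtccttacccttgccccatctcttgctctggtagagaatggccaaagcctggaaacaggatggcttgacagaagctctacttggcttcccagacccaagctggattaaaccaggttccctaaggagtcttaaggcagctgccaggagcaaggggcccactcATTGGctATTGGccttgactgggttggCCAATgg
Lep (chr6:29059971-29060220, plus strand): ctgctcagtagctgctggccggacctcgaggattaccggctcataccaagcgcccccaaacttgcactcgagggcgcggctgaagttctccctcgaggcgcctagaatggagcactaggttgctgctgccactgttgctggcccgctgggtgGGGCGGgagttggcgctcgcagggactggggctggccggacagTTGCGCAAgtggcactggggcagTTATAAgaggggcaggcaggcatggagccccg
Nrg4 (chr9:55283626-55283875, minus strand): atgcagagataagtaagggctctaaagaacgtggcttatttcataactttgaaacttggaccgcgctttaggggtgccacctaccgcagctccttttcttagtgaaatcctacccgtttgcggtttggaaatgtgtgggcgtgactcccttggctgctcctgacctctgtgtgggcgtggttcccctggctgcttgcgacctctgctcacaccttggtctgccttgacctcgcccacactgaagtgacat
The Adipoq stretch held 3 CCAAT matches, which begin 34, 27 and 7 bases before the start, and CCAAT was present in 33.85% of 32851 mouse promoter stretches of this length. The Lep stretch held TTGCGCAA, beginning 55 bases before the start, a palindrome found in 0.164% of promoters. It also held TATAA, found in 22.8%, and GGGCGG, found in 32.7%. The Nrg4 stretch held none of these motifs in the window. CACGTG, present in 6.02% of promoters, was in none of the 11 promoter stretches of the set. A match is a description of letters and not a binding site.

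The hormone resistin, which in mice is made by adipocytes and impairs insulin action, was close to leptin in its difference. Retn read 6966 in the KO array and 7466 in the WT array, a log2 difference of -0.10. Rarres2, which encodes chemerin, a chemoattractant of leukocytes and a regulator of adipocyte differentiation, was close to equal on both arrays. It read 5656 in the KO array and 5604 in the WT array, a difference of 0.01. Chemerin and both adiponectin receptors are also expressed in liver, and 7 of 8 measured hepatocyte markers were higher in the KO array, their summed intensity being 8210 there and 3565 in the WT array. Alb, the gene of albumin, read 4523 in the KO array and 1692 in the WT array (1.42). The part of liver transcripts in the Rarres2 and adiponectin receptor values was not tested.

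The hormones with dimmer probe sets went in opposite directions. Nampt encodes the rate-limiting enzyme of NAD salvage, which fat also secretes under the name visfatin. It read 824 in the KO array and 977 in the WT array, a log2 difference of -0.25 and a ratio of 0.844. The Nampt difference was 1.45 times the SD between probe sets, and 16.5% of genes above the filter had a lower one. Nrg4, a neuregulin that is enriched in brown fat and acts on the liver, read 965 in the KO array and 768 in the WT array, a log2 difference of 0.33 and a ratio of 1.26. Metrnl, the meteorin-like hormone that is induced by cold and exercise, read 383 in the KO array and 312 in the WT array, a log2 difference of 0.29 and a ratio of 1.23. Nrg4 and Metrnl were thus the only genes of the set that were higher by more than the SD between probe sets, at 1.94 and 1.74 times it. Of genes above the filter 4.80% had a higher difference than Nrg4, and 5.94% had a higher one than Metrnl. Counting both directions, 9.1% lay at least as far from the median difference of these genes as Nrg4, and 11.3% as Metrnl. Both are the highest of 10 genes and were picked as such, so these ranks do not set them apart. The Nrg4 difference lay 0.71 above that of Adipoq, 2.95 times the SD of a difference between probe sets, the widest gap in the set and one picked as such.

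Markers of other cells moved beside these hormones. Of 6 measured brown adipocyte markers 3 were higher, 2 lower and 1 equal, and their summed intensity was 1698 in the KO array and 1411 in the WT array. Only 3 of the 6 were above the filter, and for the rest the signal cannot be told from background. Of all genes above the filter 36.6% were higher and 62.3% lower in the KO array. Cidea, which coats lipid droplets in brown adipocytes, read 213 in the KO array and 84 in the WT array (1.33). Cox8b, a subunit of cytochrome oxidase, read 1079 in the KO array and 926 in the WT array (0.22), and Cox7a1 read 260 in KO and 267 in WT (-0.04), with its sign turning under other scalings. Ucp1, the defining uncoupling protein, was below the filter at 55 in the KO array and 38 in the WT array. Of 10 macrophage markers, a cell type that also makes Metrnl and Nampt, 8 were higher, with a summed intensity of 34313 in the KO array and 29481 in the WT array. Fcgr1, an immunoglobulin receptor, read 503 in the KO array and 308 in the WT array (0.71), and C1qa, a complement subunit, read 2845 in KO and 2167 in WT (0.39). Mertk, a receptor for the uptake of dead cells, went the other way at 470 in the KO array and 664 in the WT array (-0.50). The part of brown adipocytes and macrophages in the Nrg4, Metrnl and Nampt values was not tested.

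**Figure D2:**
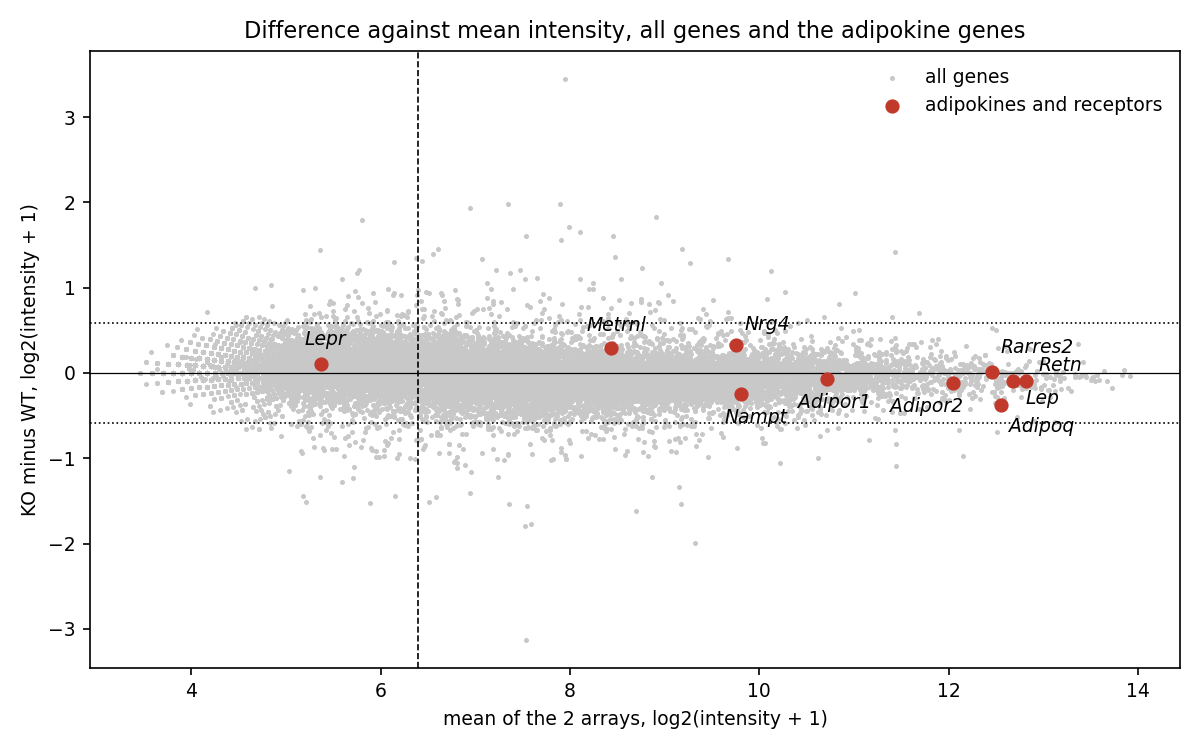
Difference between the arrays (KO minus WT, log2(intensity + 1)) against the mean of the 2 arrays for all 19938 genes (grey) and the 10 adipokine and receptor genes (red, labelled); dotted lines mark 1.5-fold and the dashed line the intensity filter. All 10 genes lie between the 1.5-fold lines, from -0.38 for Adipoq to 0.33 for Nrg4.

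Of the receptors of the set, Adipor1 and Adipor2 were above the filter and differed little. Lepr, the leptin receptor, read 42 in the KO array and 39 in the WT array. Both readings were below the filter, and no detection call was used, so the signal cannot be told from background. Rounding to whole numbers alone allows a log2 difference from 0.07 to 0.14. Adipor1 read 1640 in the KO array and 1716 in the WT array (-0.07), and Adipor2, whose product favours fatty acid oxidation through PPAR-alpha in liver, read 4053 in KO and 4395 in WT (-0.12). Each of the adiponectin receptors was thus lower in the KO array by less than the SD between probe sets, and their differences were 0.05 apart. Of genes above the filter, 48.8% had a lower difference than Adipor1 and 37.5% a lower one than Adipor2.

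Genes that act on or downstream of the leptin receptor were measured as a list of 11, all above the filter. In the KO array 6 were higher and 5 lower, with a median difference of 0.02 and 0 past 1.5-fold. Using only the brightest probe set per gene, 5 were higher and 6 lower, with a median of -0.04, so the list has no settled direction. Irs2, an adaptor of insulin signalling that leptin also engages, read 257 in the KO array and 369 in the WT array (-0.52), the largest difference of the list. Jak2, the kinase bound to the receptor, read 455 in the KO array and 508 in the WT array (-0.16), and the phosphatase gene Ptpn11 read 1339 in KO and 1474 in WT (-0.14). Leprot, whose product limits the display of the leptin receptor on the cell surface, read 459 in the KO array and 440 in the WT array (0.06). For Socs3, the feedback inhibitor of the pathway, both probe sets disagreed: one read 73 in the KO array and 56 in the WT array, below the filter, and the brighter one 239 in KO and 247 in WT, so no direction is given for this gene. The probe sets of Ptpn2, a phosphatase gene, also had opposite signs, at 0.11 and -0.08. Averaged over their probe sets, Socs3 and Ptpn2 were among the 6 genes counted as higher.

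Of 10 measured genes for the assembly, binding and signalling of adiponectin, 6 were higher and 4 lower, with a median of 0.02 and 0 past 1.5-fold. Cdh13, T-cadherin, the surface protein that holds adiponectin complexes on vessel walls, read 434 in the KO array and 533 in the WT array (-0.30). Prkaa2, a catalytic subunit of the AMP-activated kinase, was higher at 198 in the KO array and 167 in the WT array (0.24). The assembly chaperone Erp44 read 484 in the KO array and 511 in the WT array (-0.08), and Ppara, a nuclear receptor of fatty acid oxidation, read 164 in KO and 178 in WT (-0.12). T-cadherin is a protein of the endothelium, and beside its value all 7 endothelial markers were lower in the KO array, with a median of -0.39. Robo4 read 347 in the KO array and 544 in the WT array (-0.65), within 1.5-fold after quantile normalisation or loess. The summed intensity of these markers was 6082 in the KO array and 7891 in the WT array, and their part in the Cdh13 value was not tested.

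The C1q/TNF-related proteins are secreted paralogs of adiponectin with the same globular domain. Of 8 measured, 7 were lower in the KO array and 1 was higher, beside 62.3% lower among all genes above the filter. Their median was -0.23, against -0.06 over all genes above the filter, and it ran from -0.23 to -0.11 over the settings tried. Under quantile normalisation, loess and median centring, 6 were lower and 2 higher, the sign of C1qtnf1 turning. C1qtnf9, the paralog closest to adiponectin in sequence, read 226 in the KO array and 362 in the WT array (-0.68), and it was the only one past 1.5-fold. C1qtnf6 read 109 in the KO array and 132 in the WT array (-0.27), C1qtnf2 read 158 in KO and 186 in WT (-0.23), and C1qtnf12, known as adipolin, read 1241 in KO and 1404 in WT (-0.18). Below the filter were 2 of the 8 genes, both counted among the 7 lower, so the count and the median rest partly on dim genes.

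For chemerin, the signalling receptor Cmklr1, found on macrophages and adipocytes, read 1541 in the KO array and 1961 in the WT array, a log2 difference of -0.35, while the hormone gene Rarres2 differed by 0.01. The other chemerin receptor, Gpr1, was below the filter at 52 in the KO array and 65 in the WT array. Ccrl2, which binds chemerin without signalling, read 110 on both arrays. The lower Cmklr1 value stood beside macrophage markers that were mostly higher and adipocyte markers that were mostly lower. The part of either cell type in the Cmklr1 value was not tested.

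In the resistin family, Retnla differed far more than Retn. Retnla, a resistin-like protein of alternatively activated macrophages and of fat, read 2848 in the KO array and 1491 in the WT array, a log2 difference of 0.93. Retnlb, at 19 in the KO array and 18 in the WT array, and Retnlg, at 49 on both, were below the filter. Of the receptors proposed for resistin, Cap1 read 4724 in the KO array and 4401 in the WT array (0.10), and Tlr4 read 324 in KO and 355 in WT (-0.13).

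Around Nampt, 7 of 15 measured genes of NAD synthesis and use were higher in the KO array and 8 lower, with a median of -0.01. Under quantile normalisation, loess and median centring 9 were higher and 6 lower. Bst1, an ectoenzyme that consumes NAD, read 443 in the KO array and 240 in the WT array (0.88), the only gene of the list past 1.5-fold. Naprt, which makes NAD from nicotinic acid, was dim at 98 in the KO array and 83 in the WT array (0.24). The NAD synthetase gene Nadsyn1 read 107 in the KO array and 125 in the WT array (-0.22), and Nadk2, the mitochondrial NAD kinase, read 184 in KO and 213 in WT (-0.21). Nampt is a target of the circadian clock, and 4 of 10 measured clock genes were higher in the KO array and 6 lower, or 5 and 5 under those scalings. Arntl, the gene of the activator Bmal1, read 140 in the KO array and 215 in the WT array (-0.62), within 1.5-fold after each of the scalings tried, and its partner Clock read 963 in KO and 1158 in WT (-0.27). Of the output and repressor genes, Dbp read 838 in the KO array and 574 in the WT array (0.55), and Nr1d1 read 3576 in KO and 2828 in WT (0.34). Other repressor genes went both ways: Per1 (-0.20), Cry2 (-0.19), Cry1 (-0.07) and Per3 (-0.02) were lower, and Per2 (0.13) and Nr1d2 (0.07) higher. The sign of Per3 turned under those scalings. The labels give no time of collection, and the part of clock phase in the Nampt value was not tested.

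The receptors through which neuregulin 4 acts were dim in this tissue. Erbb4 read 49 in the KO array and 42 in the WT array, and Erbb3 read 75 in KO and 91 in WT. Erbb4 was below the filter on both arrays, and Erbb3 lay at its edge, above 83 in the WT array alone and just under the filter in the mean of its log2 values. Of the 10 measured neuregulins, ErbB receptors and ErbB ligands 4 were above it. Egfr, the receptor of epidermal growth factor, read 1293 in the KO array and 1189 in the WT array (0.12), and Erbb2 read 115 in KO and 101 in WT (0.19). The Erbb2 difference fell to 0.03 when probe sets with several symbols were included. Among the other ligands Btc, betacellulin, read 189 in the KO array and 216 in the WT array (-0.19), and Hbegf read 80 in KO and 91 in WT (-0.18). Hbegf, counted among the 4 above the filter, exceeded 83 in the WT array alone. For Metrnl, the paralog Metrn read 162 in the KO array and 139 in the WT array (0.22). Kit, a receptor tyrosine kinase proposed as a receptor for the meteorin-like hormone, read 187 in the KO array and 212 in the WT array (-0.18). Kit is also a mast cell receptor, and the 3 mast cell markers above the filter read higher in the KO array, with Cpa3, a mast cell protease, at 663 there and 282 in the WT array (1.23). The other 3 of the 6 listed, Cma1, Fcer1a and Ms4a2, were below the filter on both arrays, where signal cannot be told from background. The part of mast cells in the Kit value was not tested.

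**Figure D3:**
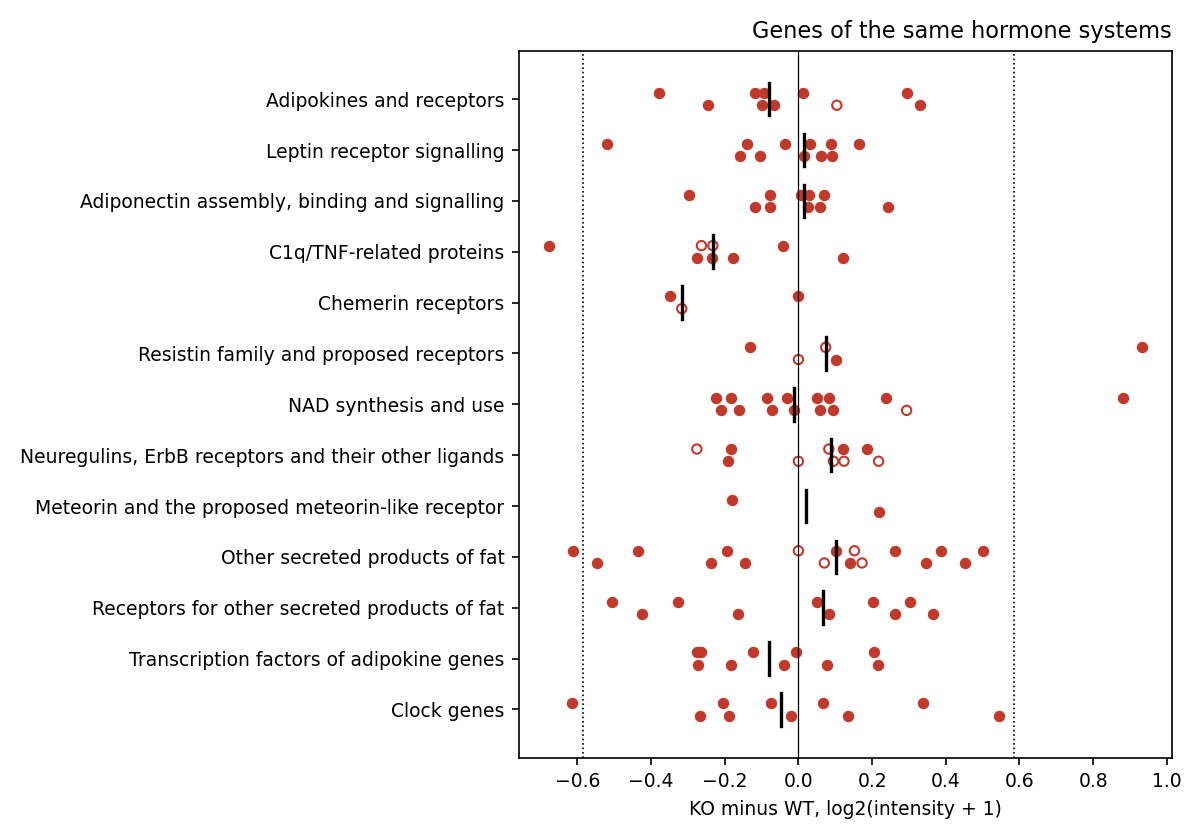
Difference between the arrays (KO minus WT, log2(intensity + 1)) for each measured gene of the adipokine set and of 12 further lists; filled points were above the intensity filter, open points below it, black bars are list medians and dotted lines mark 1.5-fold. The largest differences, Retnla (0.93) and Bst1 (0.88), lie outside the adipokine set.

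The differences of other secreted products of fat ran from -0.61 to 0.50, over a longer list than the 7 hormones. Of 17 measured, 10 were higher in the KO array, 6 lower and 1 equal. Their median was 0.10, and it ran from -0.15 to 0.16 over the settings tried. Only 13 of the 17 were above the filter, among them all 6 lower genes, and for the rest the signal cannot be told from background. Lcn2, lipocalin 2, read 2527 in the KO array and 1784 in the WT array (0.50), and the monocyte chemoattractant Ccl2 read 884 in KO and 646 in WT (0.45). Agt, angiotensinogen, read 816 in the KO array and 1247 in the WT array (-0.61), the only gene of the list past 1.5-fold and not past it after quantile normalisation, loess or median centring, and Dpp4, a peptidase that fat sheds, read 362 in KO and 529 in WT (-0.55). Of 10 receptors for such products 6 were higher and 4 lower. Aplnr, the apelin receptor of endothelium, read 795 in the KO array and 1130 in the WT array (-0.51), beside the lower endothelial markers. Klb, the co-receptor for fibroblast growth factor 21, read 499 in the KO array and 670 in the WT array (-0.42). Ccr2, the receptor of Ccl2, read 464 in the KO array and 360 in the WT array (0.37), and Agtr1a, an angiotensin receptor, read 497 in KO and 624 in WT (-0.33).

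Of 10 transcription factors known to act on adipokine genes, 3 were higher in the KO array and 7 lower, with a median of -0.08 and 0 past 1.5-fold. After loess or median centring 5 were higher and 5 lower, the signs of Cebpb and Hif1a turning. Fosl2, an AP-1 factor linked to leptin expression, read 528 in the KO array and 639 in the WT array (-0.27). Foxo1, a factor that insulin restrains and that acts on Adipoq, read 699 in the KO array and 840 in the WT array (-0.26), and the oxysterol receptor Nr1h3 read 980 in KO and 1185 in WT (-0.27). Cebpd, an early factor of adipocyte differentiation, was higher at 135 in the KO array and 116 in the WT array (0.22).

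**Figure D4:**
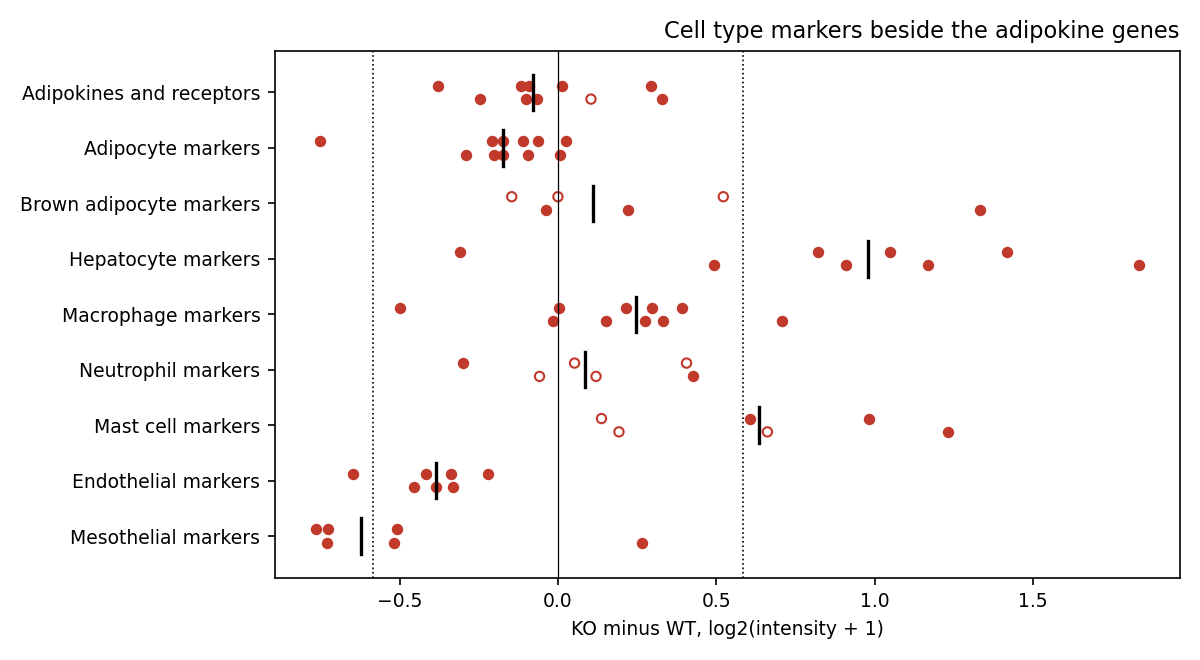
Difference between the arrays (KO minus WT, log2(intensity + 1)) for the adipokine set and for 8 lists of cell type markers, drawn as filled points above and open points below the intensity filter, with black bars for list medians and dotted lines for 1.5-fold. Hepatocyte and mast cell markers were shifted upwards (medians 0.98 and 0.63) and endothelial and mesothelial markers downwards (medians -0.39 and -0.62), while the adipokine set had a median of -0.08.

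The remaining marker lists bear on what else the tissue held. Of 6 markers of mesothelium, the lining of visceral fat, 5 were lower in the KO array, with a summed intensity of 1415 in the KO array and 2098 in the WT array. Upk3b read 455 in the KO array and 773 in the WT array (-0.76). Only 2 of 6 neutrophil markers were above the filter, Csf3r at 144 in the KO array and 107 in the WT array (0.43) and S100a8 at 134 in KO and 165 in WT (-0.30).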

How the data were processed

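White adipose tissue RNA of 1 Oma1-deficient and 1 control array was measured on Affymetrix Mouse Gene 1.0 ST arrays. The values the authors deposited are linear intensities in whole numbers, 1 per probe set. Their software, background correction, probe summary and scaling were not given in the sources used here. Values ran from 8 to 21365 in the KO array and from 8 to 21216 in the WT array, over 35512 probe sets. Genes were named from GEO's platform annotation, which gives 21789 probe sets a single symbol, 1621 several and 12102 none; only the first entered. All 10 member gene identifiers matched RefSeq (GRCm38.p6). Values were converted to log2(intensity + 1) and averaged over the probe sets of a gene, with no further normalisation. No test was possible. The text names the 10 members, Oma1, receptor and binding genes, and up to 4 genes a list (3 for markers) with the largest absolute difference above the filter. Retnlb, Retnlg, Ucp1, C1qtnf1, Cebpb, Hif1a, Ptpn2, Cma1, Fcer1a and Ms4a2 are named besides, chosen after their values were seen. The same holds for Per1, Per2, Per3, Cry1, Cry2 and Nr1d2. Members and lists were chosen with earlier results of these data known. Of the 182 listed genes, 171 were measured and 11 not analysed here. The code was tested on simulated data. Alternatives were a pseudocount of 16, quantile normalisation, loess, median centring, the brightest probe set, probe sets with several symbols, and other filters. Python 3.11.15, numpy 2.4.6, pandas 2.3.3, statsmodels 0.14.6 and matplotlib 3.10.9 were used.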

Additional observations from a re-analysis of the deposited data

How the results depend on the processing

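No paired analysis was possible because each group holds 1 array, and no array could be left out. For the 10 adipokine and receptor genes, no alternative scale, scaling or choice of probe sets turned a sign or moved a difference by as much as the SD of 0.17 between probe sets: Adipoq ranged from -0.38 to -0.32, Nrg4 from 0.32 to 0.39, Metrnl from 0.28 to 0.37, Nampt from -0.25 to -0.18 and Lep from -0.09 to -0.03, and 0 reached 1.5-fold in any. Adipor1 came closest to 0, at -0.0047 after median centring. The balance of all genes depended on the scaling: 143 higher and 199 lower by 1.5-fold became 170 and 148 with quantile normalisation, 165 and 154 with loess, and 182 and 139 with median centring, 54 and 81 when the upper quartile was the filter, and 229 and 280 without one. The 2-fold counts of 31 higher and 28 lower became 11 and 7 at the upper quartile and 41 and 40 with no filter. With a pseudocount of 16 the lower 2-fold count was 17, and after median centring 39 were higher and 18 lower, after quantile normalisation or loess 35 and 22. With the pseudocount of 16, clock genes at least 1.5-fold lower numbered 0 and mast cell markers at least 1.5-fold higher 2. With quantile normalisation, loess or median centring, 0 other secreted products and 0 clock genes were 1.5-fold lower and 1 clock gene was 1.5-fold higher; with quantile normalisation or loess, 0 endothelial markers were 1.5-fold lower. With only genes above the upper quartile, fewer genes entered: 0 C1q/TNF-related proteins, 0 clock genes and 1 mesothelial marker were 1.5-fold lower, 0 brown adipocyte markers and 1 mast cell marker were 1.5-fold higher, the median of the other secreted products was -0.15 in place of 0.10, and that of the mast cell markers, with 1 gene left, was 1.23. The medians of the leptin receptor list (-0.04 to 0.08), the clock genes (-0.05 to 0.01) and the genes of NAD synthesis and use (-0.01 to 0.05) also changed sign among settings. Dim probe sets such as Lepr cannot be told from background here.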
